A study of Mus musculus with 3 samples.

Results

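The proteasome genes of mouse embryonic stem (ES) cells were read in R1, an ES cell line of strain 129 in the labels, on 3 Affymetrix Mouse Gene 1.0 ST arrays that the labels call biological repeats. Members were every gene whose single symbol in the array annotation named a proteasome subunit (Psma, Psmb, Psmc, Psmd, Psme or Psmf with a number), an assembly factor of the Psmg series, Pomp or Adrm1. The rule found 48 genes among 19057, read by 54 probe sets; Adrm1 and Psmd10 were not analysed here. The labels give 1 group with no treatment, genotype or time to compare, so the arrays show which members gave signal and how far the repeats differed. Neither the culture conditions nor any feeder layer is described, and 1 line stands for the cell type.

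The proteasome is the protease that degrades proteins tagged with ubiquitin. Its core particle is a barrel of stacked rings, with alpha subunits at the ends and beta subunits inside, of which Psmb5, Psmb6 and Psmb7 carry the active sites. The regulatory particle caps the barrel, binds ubiquitin chains and unfolds the substrate with a ring of ATPases. In cells exposed to interferon, Psmb8, Psmb9 and Psmb10 take the places of Psmb5, Psmb6 and Psmb7 in newly built cores, which are then called immunoproteasomes and favour peptides for MHC class I.

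Because the results turn on the active subunits and their interferon-inducible replacements, the windows around the gene starts (250 bases before to 50 after) are shown for a constitutive pair and for the immunoproteasome pair of the MHC locus. The sequences are from RefSeq on GRCm38.p6 and read 5′ to 3′ on the gene's strand. Psmb5 lies at chr14:54617946-54618245 on the minus strand, Psmb6 at chr11:70525107-70525406 on the plus strand, Psmb8 at chr17:34197945-34198244 on the plus strand and Psmb9 at chr17:34187281-34187580 on the minus strand. Capitals mark matches on either strand to TGACNNNGC, the antioxidant response core that Nfe2l1 and Nfe2l2 bind with small Maf proteins, to GAAA, any pair of bases and GAAA, the form bound by interferon regulatory factors, or to TTCNNNGAA, the form of the interferon gamma activation site.
Psmb5: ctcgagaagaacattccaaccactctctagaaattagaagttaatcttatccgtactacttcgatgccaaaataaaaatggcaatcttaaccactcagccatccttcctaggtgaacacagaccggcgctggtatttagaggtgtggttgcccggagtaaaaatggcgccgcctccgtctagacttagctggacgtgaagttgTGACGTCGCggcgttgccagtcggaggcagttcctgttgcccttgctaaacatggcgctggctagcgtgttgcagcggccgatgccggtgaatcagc
Psmb6: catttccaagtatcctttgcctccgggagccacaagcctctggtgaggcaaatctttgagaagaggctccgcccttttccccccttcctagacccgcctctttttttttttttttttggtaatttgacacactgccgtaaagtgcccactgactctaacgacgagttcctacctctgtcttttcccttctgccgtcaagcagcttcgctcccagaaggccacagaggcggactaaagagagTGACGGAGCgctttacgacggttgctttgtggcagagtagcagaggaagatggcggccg
Psmb8: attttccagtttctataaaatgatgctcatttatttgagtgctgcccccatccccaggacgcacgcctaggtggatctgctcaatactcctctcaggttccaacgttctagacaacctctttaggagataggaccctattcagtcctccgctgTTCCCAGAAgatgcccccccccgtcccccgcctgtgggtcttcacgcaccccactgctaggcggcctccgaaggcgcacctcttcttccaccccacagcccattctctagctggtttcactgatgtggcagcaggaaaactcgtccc
Psmb9: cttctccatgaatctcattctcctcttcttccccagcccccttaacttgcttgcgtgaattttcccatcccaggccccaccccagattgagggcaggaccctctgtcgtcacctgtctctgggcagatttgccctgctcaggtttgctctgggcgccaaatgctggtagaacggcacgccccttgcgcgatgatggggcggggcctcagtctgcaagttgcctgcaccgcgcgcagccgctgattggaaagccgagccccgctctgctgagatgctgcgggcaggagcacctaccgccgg

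Psmb5 held TGACGTCGC at position -47 relative to its start, and Psmb6 held TGACGGAGC at -9. Psmb8 held TTCCCAGAA at -97, and the Psmb9 window held none of the 3 forms. A promoter entry was found for 40 of the 48 members, in 43 windows; Psmb1, Psmb2, Psmb7, Psma8, Psmc3, Psmd3, Psmd7 and Psmg2 had none. TGACNNNGC occurred in 6 of the 43 windows (14.0%) and in 12.4% of 32851 windows of all genes, so the members' share was close to the background. The interferon regulatory factor form occurred in 5 (11.6%) against 3.44%, in Psmd4, Psmd9, Psmb3, Psmg4 and Psme1, and TTCNNNGAA in 3 (6.98%) against 8.30%, in Psmd2, Psmg1 and Psmb8. These matches describe letters in the windows, and binding was not measured. The Psmb9 window shared 275 bases with that of Tap1, a peptide transporter gene read from the opposite strand.

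Values are log2 probe set intensities. Background was set on each array from 1170 odorant and pheromone receptor genes, whose 95th percentile lay at 4.72, 4.60 and 4.61 in repeats 1, 2 and 3; a gene over this receptor cutoff is called above background. A stricter cutoff came from 156 genes of other tissue-restricted families (keratin-associated, cornified envelope, taste receptor, defensin and placental prolactin genes), at 6.21, 6.31 and 6.22. Of the 48 members, 46 were above the receptor cutoff on all 3 arrays, while 71.4% of 17887 genes outside the receptor families were. Above the stricter cutoff on all 3 arrays were 44 members and 39.6% of 18901 genes. The members that failed the first were Psmb8 and Psmb11, and Psmg3 and Psmg4 failed only the second. Intensity depends on each gene's probes, so members are set against the cutoffs and against themselves between repeats, and not ranked by level. Of the markers of the labelled cell type, all 11 measured ES cell markers, Pou5f1, Sox2 and Nanog among them, were above the receptor cutoff on all 3 arrays. So were 4 of 9 leukocyte markers, Cd3e, Laptm5, Cd68 and Coro1a, and the last 3 of these also passed the stricter cutoff on all 3 arrays. The defining gene Ptprc, and Cd79a, Lyz2, Itgam and Csf1r, were above the receptor cutoff on 0 arrays. Of the endoderm and trophoblast markers, 4 of 10 passed the receptor cutoff and 0 the stricter one on all 3 arrays.

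**Figure D1:**
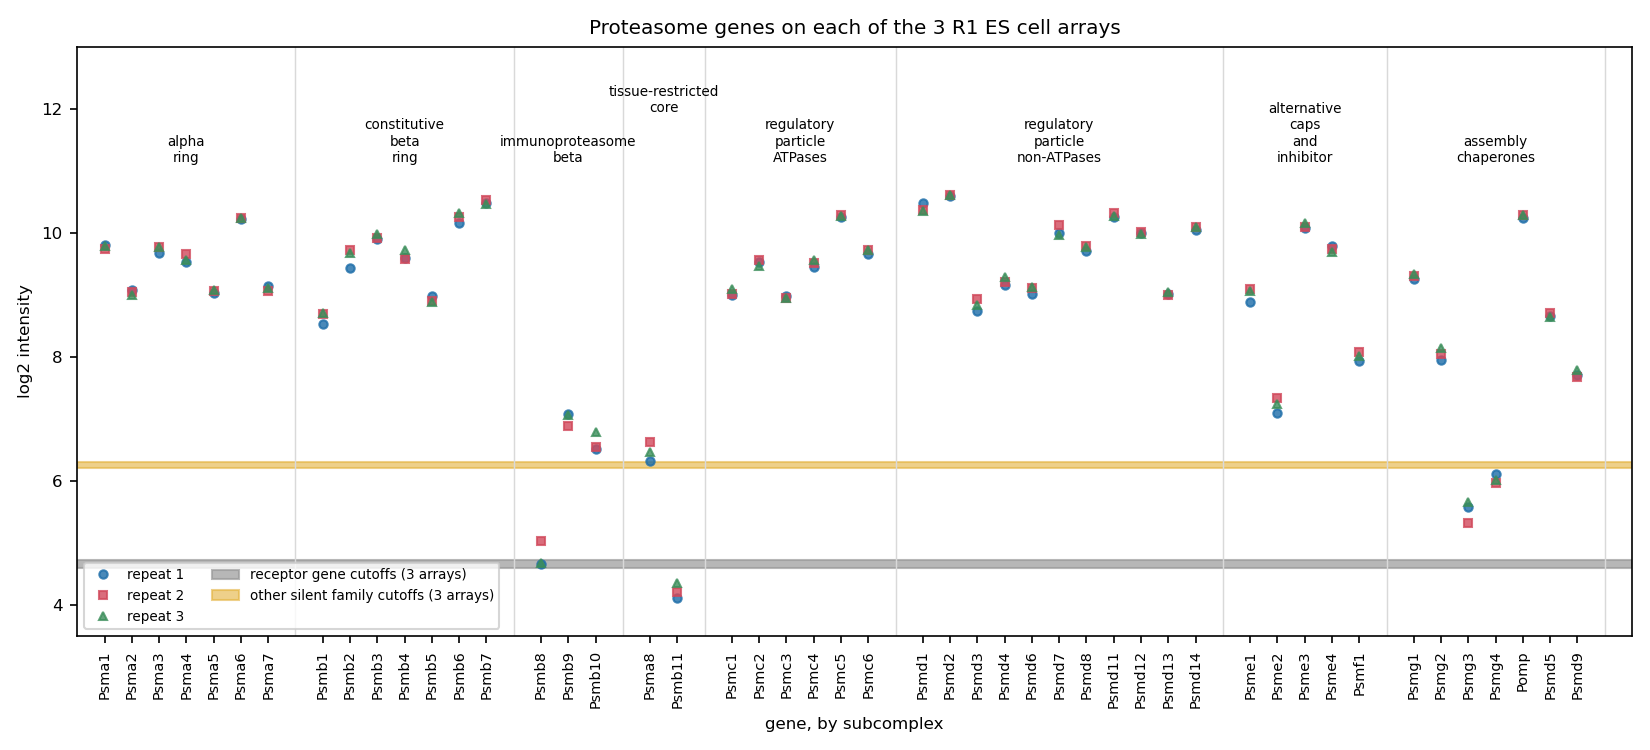
Log2 intensity (vertical axis) of each of the 48 members on each array, 1 symbol per repeat, grouped by subcomplex; the grey and yellow bands span the receptor cutoffs and the stricter cutoffs of the 3 arrays. Psmb8 sits in or just above the grey band and Psmb11 below it, while the constitutive subunits sit above both bands on all 3 arrays.

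All 7 genes of the alpha ring, which forms the gate of the barrel, gave signal on all 3 arrays. Psma4 had the largest spread of the ring, with 9.53, 9.66 and 9.57 in repeats 1, 2 and 3 (SD 0.069). Psma6 had the smallest, with 10.22, 10.25 and 10.24 (SD 0.011). Repeat 2 was the highest in both, with a range of 0.14 in Psma4 and 0.021 in Psma6. The other members read 9.78 ± 0.038 for Psma1, 9.04 ± 0.043 for Psma2, 9.74 ± 0.057 for Psma3, 9.06 ± 0.023 for Psma5 and 9.10 ± 0.035 for Psma7 (mean ± SD, n = 3). Psma5 was an average of 2 probe sets that disagreed: one read 8.94, 9.13 and 9.17 and was lowest in repeat 1, and the other read 9.13, 8.995 and 8.99 and was highest there. Its spread is therefore uncertain.

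All 7 constitutive beta subunits gave signal as well. Psmb5, the chymotrypsin-like subunit that cuts after hydrophobic residues, read 8.98, 8.91 and 8.88 in repeats 1, 2 and 3. Psmb6, the caspase-like subunit that cuts after acidic residues, read 10.16, 10.25 and 10.32. Psmb7, the trypsin-like subunit that cuts after basic residues, read 10.49, 10.53 and 10.47 and had the smallest spread of the ring (SD 0.027). The highest repeat differed among these active subunits, being repeat 1 for Psmb5, repeat 3 for Psmb6 and repeat 2 for Psmb7. Of the subunits without active sites, Psmb2 had the ring's largest spread, with 9.43, 9.73 and 9.68 (SD 0.16), repeat 1 lying 0.27 below the mean of the others. Psmb1 (8.65 ± 0.095), Psmb3 (9.94 ± 0.043) and Psmb4 (9.63 ± 0.077) completed the ring (n = 3). The 2 probe sets of Psmb3 differed in which repeat was lowest, repeat 2 in one and repeat 1 in the other.

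The immunoproteasome subunits lay nearer to background. Psmb8, which replaces Psmb5, read 4.65, 5.03 and 4.67, so it passed the receptor cutoff by 0.43 in repeat 2 and 0.059 in repeat 3 and missed it in repeat 1. It was below the stricter cutoff on all 3 arrays. Psmb9, which replaces Psmb6, read 7.07, 6.89 and 7.07, and Psmb10, which replaces Psmb7, read 6.51, 6.55 and 6.79. Both passed both cutoffs on all 3 arrays, by 2.29 to 2.46 for Psmb9 and 1.79 to 2.18 for Psmb10 over the receptor cutoff, where the constitutive ring passed it by 3.82 (Psmb1 in repeat 1) to 5.92 (Psmb7 in repeat 2). These margins are from different probes and give no ratio between subunits. In bulk RNA, signal in few cells and low signal in all cells cannot be told apart.

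Between repeats, Psmb9 was lowest in repeat 2 (-0.18 from the mean of the others), and Psmb10 was lowest in repeat 1 and highest in repeat 3 (0.26 from the mean of the others). Psmb8 read highest in repeat 2, but its other repeats were below or just over the cutoff, so no size is given for that difference. Their constitutive counterparts deviated in repeat 2 by -0.025 (Psmb5), 0.0061 (Psmb6) and 0.045 (Psmb7). The median SD was 0.15 over the 3 immunoproteasome subunits and 0.077 over the 7 constitutive ones, beside 0.10 over all genes above background on all 3 arrays. This order rested on repeat 2: without it the medians were 0.010 and 0.083. The 0.010 is the SD of Psmb8 alone, the middle of the 3, from readings of 4.65 and 4.67 near the receptor cutoff. Psmb10 still read 6.51 and 6.79 in those repeats, so the changed order is itself uncertain. Spread depends on level: the SD that limma expects from its trend over all genes was 0.14 at the level of Psmb8 and 0.081 at that of Psmb7. Divided by this trend, the median spread was 1.2 for the immunoproteasome and 0.85 for the constitutive subunits, and the difference was not tested.

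Psmb11 and Psma8 belong to cores of single tissues. Psmb11, the thymoproteasome subunit of cortical thymic epithelium, read 4.11, 4.20 and 4.35 and was below the receptor cutoff on all 3 arrays. Psma8, the alpha subunit of spermatocytes, read 6.33, 6.63 and 6.46 and was above both cutoffs on all 3 arrays. In repeat 1 it passed the stricter cutoff by little, 6.33 against 6.21. It is a close paralog of Psma7, so its reading is uncertain.

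All 6 genes of the ATPase ring of the regulatory particle were above background, and their SDs ran from 0.014 to 0.060. Psmc3 read 8.98, 8.95 and 8.95, and Psmc4, the least even, read 9.44, 9.51 and 9.56. Psmc2 (9.53 ± 0.050), Psmc5 (10.27 ± 0.016) and Psmc6 (9.70 ± 0.037) lay within that span (n = 3). Psmc1 read 9.04 ± 0.055 as the mean of 2 probe sets that ran opposite ways, one at 8.96, 8.84 and 8.89 and the other at 9.04, 9.19 and 9.31, so its spread is uncertain too.

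All 11 non-ATPase subunits among the measured members gave signal. Psmd2, a scaffold subunit that docks ubiquitin shuttle proteins, read 10.59, 10.61 and 10.61 and had the smallest spread of the list (SD 0.011). Psmd3, a lid subunit, had the largest, with 8.75, 8.94 and 8.84 (SD 0.098). Psmd14, the deubiquitinase that removes the chain from the substrate, read 10.08 ± 0.030, and its partner Psmd7 read 10.03 ± 0.087 (n = 3). The ubiquitin receptor Psmd4 read 9.22 ± 0.068, and Psmd1, the other large scaffold, read 10.40 ± 0.075. Psmd11, a lid subunit whose level has been tied to proteasome activity in human ES cells, read 10.28 ± 0.036. The lid subunits Psmd6 and Psmd8 read 9.08 ± 0.064 and 9.76 ± 0.042. Psmd12 and Psmd13, also of the lid, read 9.996 ± 0.021 and 9.02 ± 0.020.

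The alternative caps and the inhibitor were all above both cutoffs. Psme1 and Psme2 form the interferon-inducible cap that opens the barrel without ATP. Psme1 read 8.88, 9.10 and 9.06, and Psme2 read 7.09, 7.34 and 7.23. Both were lowest in repeat 1 and highest in repeat 2, with 1.16-fold and 1.18-fold between those repeats. Psme3, the nuclear cap of the same family, read 10.07, 10.09 and 10.16, and Psme4, a cap made of a single chain, read 9.79, 9.74 and 9.69. Psmf1, an inhibitor of the core, read 7.93, 8.08 and 8.01, in the same order of repeats as Psme1 and Psme2. One more probe set, which names a member together with another gene, was not used here.

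All 7 measured assembly factors were above the receptor cutoff on all 3 arrays. Pomp, which guides the beta ring onto the alpha ring, read 10.27 ± 0.035 (n = 3). Psmg1 and Psmg2, a dimer that builds the alpha ring, read 9.30 ± 0.047 and 8.05 ± 0.0998. Psmg3 and Psmg4, the other such dimer, read close to background, at 5.58, 5.32 and 5.67 for Psmg3 and 6.12, 5.97 and 6.02 for Psmg4. Both were above the receptor cutoff and below the stricter one on all 3 arrays, and both were lowest in repeat 2. Psmg3 had the list's largest spread (SD 0.18), with 1.27-fold from lowest to highest. Psmd5, a chaperone of the ATPase ring, read 8.67, 8.70 and 8.64 (SD 0.033), and Psmd9, another, read 7.73 ± 0.062.

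From lowest to highest repeat, 30 of the 48 spanned less than 1.1-fold, and 5, Psmb8, Psmg3, Psma8, Psmb2 and Psmb10, spanned more than 1.2-fold. Among the 46 members above background on all 3 arrays the counts were 30 and 4. Of all genes above background 30.9% spanned less than 1.1-fold and 30.4% more than 1.2-fold, and of the genes with a mean of at least 8.86, the lower quartile of the members above background, 48.2% and 15.1% did. The median SD of the 46 members above background was 0.053, beside 0.10 over the 12820 genes above background on all 3 arrays, and the 90th percentiles were 0.12 and 0.21. Since the trend falls with level, each gene was also set against the limma trend: 39 of 47 members tested had an SD under it, and 60.0% of 13596 genes did. The median of SD over trend was 0.56 for the members and 0.85 for all genes above background. By subcomplex it was 0.43 for the alpha ring, 0.48 for the ATPases, 0.47 for the non-ATPases, 0.54 for the assembly factors, 0.67 for the caps and inhibitor and 0.85 for the constitutive beta ring, the last equal to the value for all genes at this rounding. It was 1.2 for the immunoproteasome subunits and 1.17 for Psma8, the tested member of the tissue-restricted core.

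**Figure D2:**
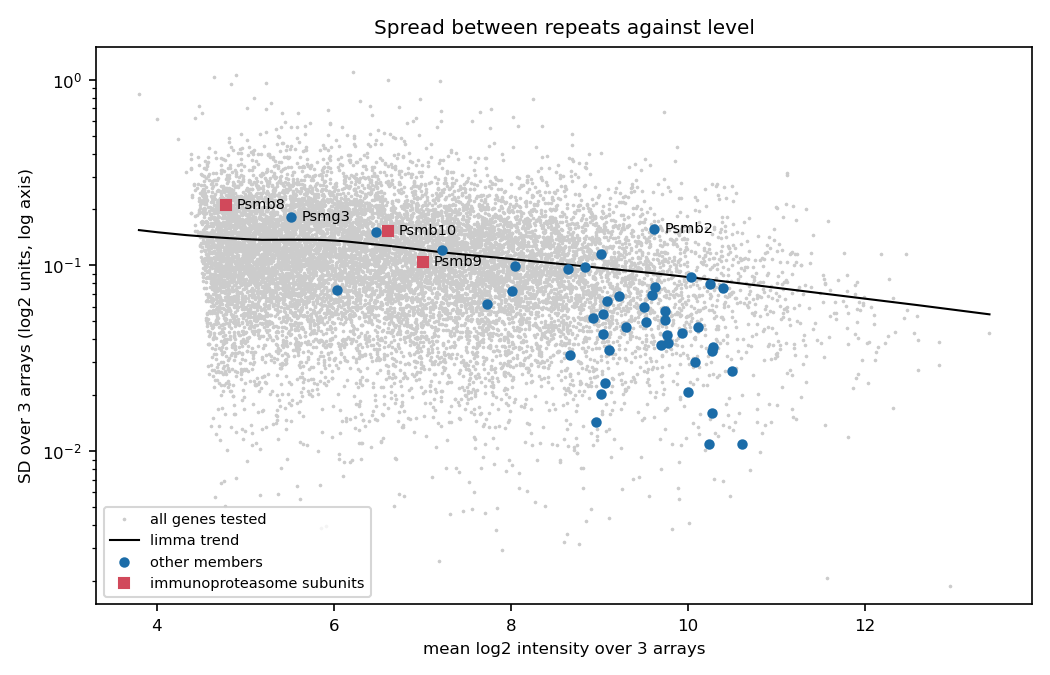
SD over the 3 arrays (vertical, log axis, log2 units) against mean log2 intensity for all 13596 genes tested (grey), the immunoproteasome subunits (red squares) and the other members tested (blue), with the limma trend as a line. The lowest members in SD are Psma6 and Psmd2, at 0.011; Of the members named on the plot, Psmb2 (0.16), Psmb8 (0.21), Psmb10 (0.15) and Psmg3 (0.18) lie above the trend and Psmb9 (0.10) below it.

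The limma variance test, which asks whether a gene's spread exceeds that trend, called 0 of 47 members after Benjamini-Hochberg adjustment over all genes, and 0 had an unadjusted p under 0.05. Over all genes it called 22 of 13596 (0.162%), and 5.75% had an unadjusted p under 0.05. The smallest adjusted p among members was 0.97, for Psmb2 (unadjusted p = 0.095, limma), followed by 0.98 for Psmb8 (unadjusted p = 0.15). A p that misses the threshold does not show that the repeats were alike in a gene. With repeat 3 left out the unadjusted count was 1, for Psmb2, and the smallest limma adjusted p was 0.99.

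The lowest and highest repeat of the members were read beside other genes and under other scalings. Here the members' level stands for a mean of at least 8.86, the lower quartile of the members above background. That set of genes reaches a mean of 13.40, where the highest member has 10.61, and it leaves out members below 8.86. Of the 46 members above background, 28 were lowest in repeat 1, beside 33.3% of the 12820 genes above background and 42.3% of the 1753 of these at the members' level (a mean of at least 8.86). After quantile normalization 13 members were lowest in repeat 1, beside 28.2% of genes above background and 25.4% of those at the members' level. Median centring gave 36 members, beside 42.3% of genes above background, and the highest probe set gave 27, beside 33.3%. Highest in repeat 2 were 17 of the 46, beside 36.9% of genes above background and 45.3% of those at the members' level. The median deviation of repeat 1 from the mean of the other repeats was -0.018 for the alpha ring, -0.046 for the constitutive beta ring, -0.039 for the ATPases, -0.052 for the non-ATPases, -0.029 for the assembly factors and -0.11 for the caps and inhibitor. It was -0.037 over the genes at the members' level and -0.011 over the genes above background. Of these lists the caps and inhibitor lay farthest from -0.037, but Psme2 (mean 7.22) and Psmf1 (8.01) lie below 8.86. The immunoproteasome subunits (-0.16) and the tissue-restricted core (-0.19), each with a gene not above background on all 3 arrays, lay farther still. Also below 8.86 were Psmb1 (8.65), Psmd3 (8.84) and the assembly factors Psmg2 (8.05), Psmg3 (5.52), Psmg4 (6.04), Psmd5 (8.67) and Psmd9 (7.73). The assembly factors in particular are thus not matched in level by these genes. After quantile normalization the medians from the alpha ring to the caps and inhibitor were 0.029, 0.0093, 0.012, -0.0029, 0.020 and -0.060 in the same order. The genes at the members' level stood at 0.015. The sign thus turned in the alpha ring, the constitutive ring, the ATPases and the assembly factors, and not in the non-ATPases or the caps and inhibitor. In repeat 2 the medians were 0.014, 0.0061, 0.016, 0.033, -0.0094 and 0.11, beside 0.033 over the genes at the members' level and 0.0064 over those above background. After quantile normalization they were -0.038, -0.034, -0.039, -0.017, -0.065 and 0.052, beside -0.014 at the members' level. Among these lists, the caps and inhibitor alone kept a positive median in repeat 2 in both scalings, and its difference from the other lists was not tested. Outside them, the tissue-restricted core, with Psmb11 below background, also had positive medians there (0.10, and 0.11 after quantile normalization). Those of the immunoproteasome subunits were -0.10 and -0.13.

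**Figure D3:**
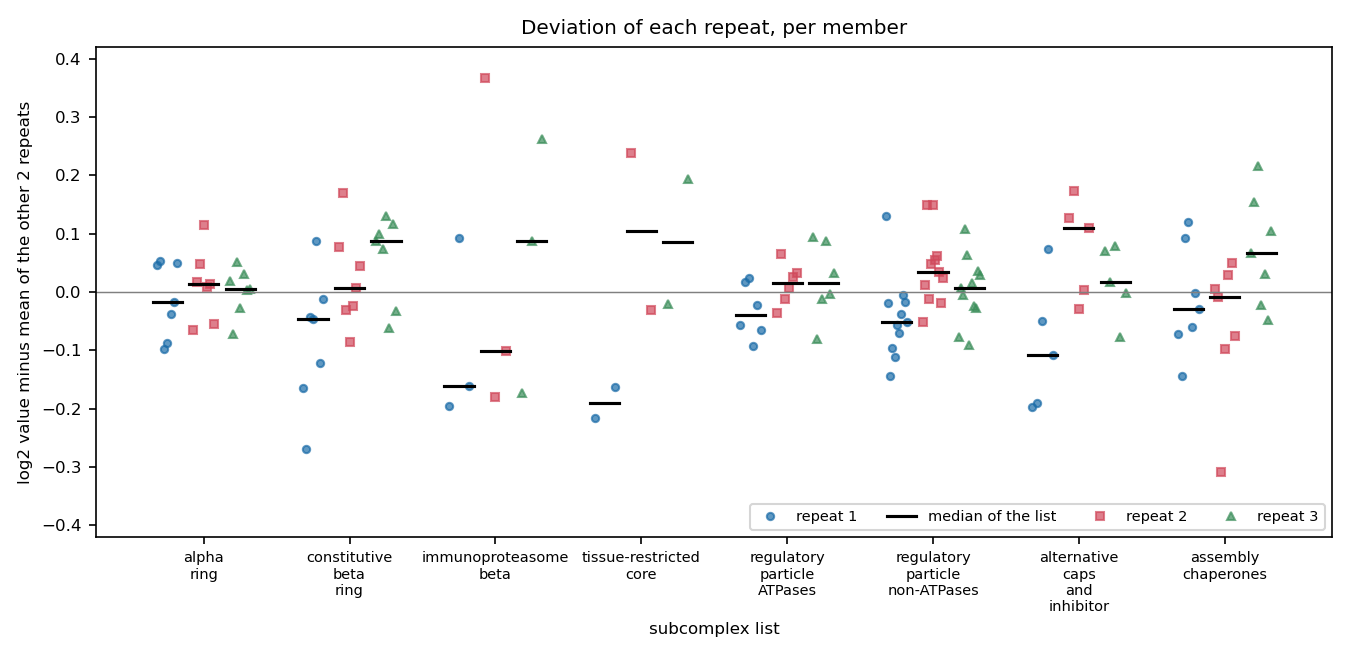
Log2 value of each repeat minus the mean of the other repeats (vertical axis) for each member, by subcomplex; symbols give the repeat and black bars the list's median. The median of repeat 1 is -0.018 in the alpha ring and -0.11 in the caps and inhibitor, and Psmb9 and Psmb10 range from -0.18 to 0.26. The Psmb8 points rest on values near background, below the receptor cutoff in repeat 1 and just over it in repeat 3.

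Genes around the proteasome were read from a list of partners and ubiquitin factors. It held 32 symbols, with some genes under more than 1 name, and 20 were measured. All 20 were above the receptor cutoff on all 3 arrays, beside 71.4% of genes outside the receptor families. The limma variance test called 0 of them, beside 0.162% of all genes tested. At an unadjusted p under 0.05 there were 0, beside 5.75% of all genes tested. Nfe2l1, the factor that drives subunit genes when the proteasome is impaired, read 8.97, 8.91 and 8.83. Txnl1, a redox protein bound to the regulatory particle, had the list's largest spread, with 8.78, 9.14 and 8.92 (limma adjusted p = 0.94). The median SD of the list was 0.070.

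The interferon and class I list set the immunoproteasome beside genes of interferon signalling and class I presentation. All 21 measured of 27 were above the receptor cutoff on all 3 arrays, beside 71.4% of genes outside the receptor families. Above the stricter one were 7, beside 39.6% of genes outside its families. The limma variance test called 2 of 21, both highest in repeat 2, beside 0.162% of all genes tested. In that test 7 had an unadjusted p under 0.05, beside 5.75% of all genes tested. Irgm1, an interferon-induced GTPase, read 5.42, 7.48 and 5.74 (adjusted p = 0.0074), and B2m, the light chain of class I, read 7.13, 8.40 and 7.43 (adjusted p = 0.033). Repeat 2 stood 1.90 and 1.13 above the mean of the others in these genes, while Psmb9 and Psmb10 stood at -0.18 and -0.10 and Psme1 and Psme2 at 0.13 and 0.17. Psmb8 also read highest in repeat 2. Irf1, a factor known to induce immunoproteasome genes, read 5.72, 5.54 and 5.74, and Nlrc5, the class I transactivator, read 5.31, 5.19 and 5.36. Tap1, which shares the Psmb9 window, read 5.69, 5.69 and 5.93, and its neighbour Tap2 read 5.78, 5.72 and 5.69. Irf1, Nlrc5, Tap1 and Tap2 were all below the stricter cutoff on all 3 arrays. In repeat 2 they stood at -0.19, -0.14, -0.12 and -0.017, while 11 of the 21 were highest in repeat 2 (36.9% of genes above background were), and the median deviation there was 0.074. The other genes with an unadjusted p under 0.05 were Gbp3 (0.72), Jak2 (0.56), Irf9 (0.51), Jak1 (0.35) and Pdia3 (0.26). All were highest in repeat 2 and did not pass the adjusted limma test. Gbp3 passed the receptor cutoff by only 0.091 in repeat 1 and 0.27 in repeat 3, so the size of its deviation is uncertain. Gbp3 and Jak2 were below the stricter cutoff on all 3 arrays.

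**Figure D4:**
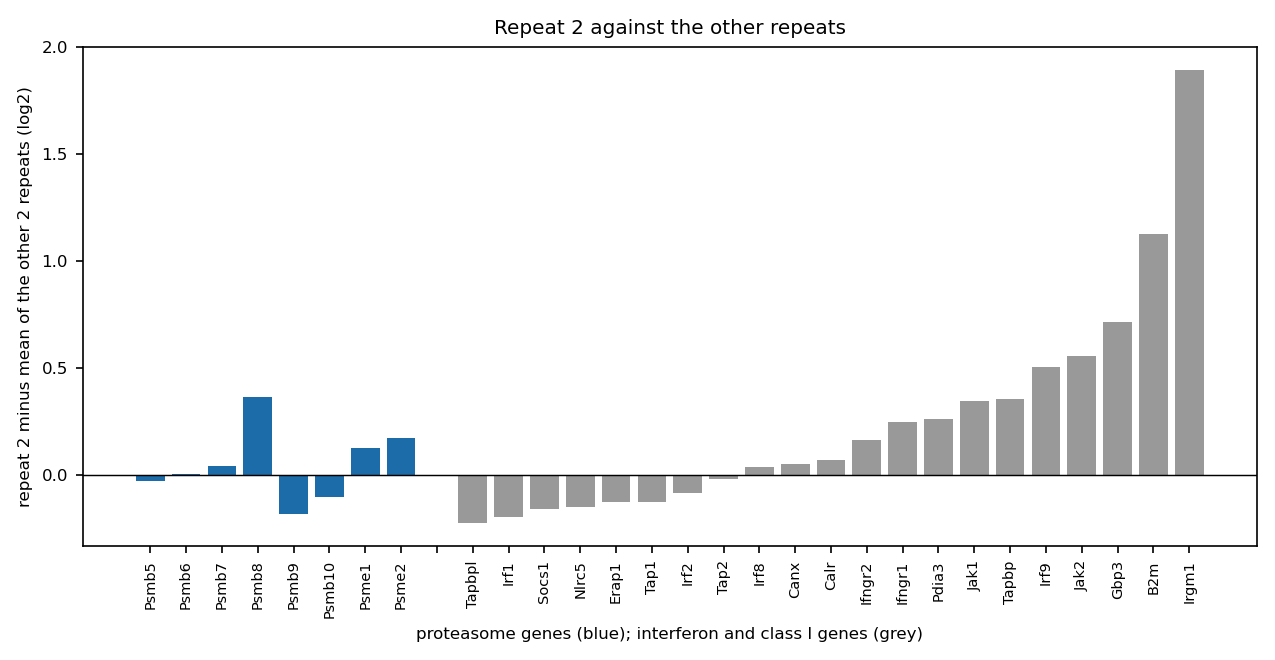
Log2 value of repeat 2 minus the mean of the other repeats (bars from 0, 1 bar per gene) for the active subunits, their replacements and the Psme1 and Psme2 cap (blue) and for the 21 interferon and class I genes (grey, in rising order). The highest bars are Irgm1 (1.90) and B2m (1.13), Psme1 (0.13) and Psme2 (0.17) lie above 0, and Psmb9 (-0.18) and Psmb10 (-0.10) below 0. The Psmb8 bar is set against repeat 1, below the receptor cutoff, and repeat 3, just over it, and has no measured size.

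Of 14 measured fibroblast markers, 10 were highest in repeat 2, beside 36.9% of genes above background on all 3 arrays. The limma variance test called 1 of 13 tested, Acta2, beside 0.162% of all genes tested. In repeat 2 the list had a median deviation of 0.35, beside 0.0064 over genes above background. Pdgfra (-0.042) and S100a4 were below 0, but S100a4 was below the receptor cutoff in repeat 2, so no size is given for it. Lum was above the receptor cutoff on 0 arrays. Their summed intensity on a linear scale, to which Vim adds more than any other marker, was 3435, 4617 and 3568, and 12 of the 14 were above the receptor cutoff on all 3 arrays. Summed ES cell markers read 21373, 22477 and 21087, and summed members 31783, 32745 and 32664. The part of these markers in the deviations of Psmb8, Psme1 and Psme2 in repeat 2 was not tested.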

How the data were processed

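Trizol extraction and biotin labelling were used for the RNA of the 3 repeats, per the labels' protocols. The deposited table holds a linear intensity per probe set. The submitters' processing notes name GCOS 1.4; how background was corrected and arrays normalized is not given in the sources used here. Array medians were 47.8, 46.7 and 46.8 in repeats 1, 2 and 3. The number of arrays limits precision.

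Log2 values were taken with no further scaling. Kept were the 20764 of 26730 probe sets that the platform annotation, which can be old, pairs with 1 symbol; 1419 with several and 4547 with none were not used. Of those kept, 20678 matched a RefSeq gene ID (GRCm38.p6), with 0 symbols differing. Where a gene had more than 1 probe set the mean was taken, as in 5 members with 11 probe sets. No member had equal values on any pair of arrays.

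Spread was tested with limma (3.58.1, R 4.3.3), setting each gene's variance over its trended, robust prior against F with 2 and 9.86 degrees of freedom, for 13596 genes above background on at least 1 array, at a Benjamini-Hochberg adjusted p of 0.05. The code was tested on simulated data. Such p-values measure only the spread between these samples. Values on each array are given for the active, replacement, tissue-restricted and cap genes and Psmf1, for the members of a list with the largest and smallest SD, for members not above background and for probe sets that disagree; partner and interferon genes were named by calls, largest SD or as fixed examples. Alternatives were other cutoffs, quantile normalization, median centring, the highest probe set, limma without trend or robust fitting, all genes tested, and each repeat left out. Members, lists and tests were chosen with earlier results of these data known. The planned comparison of protein sequences was not run.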

Additional observations from a re-analysis of the deposited data

How the results depend on the processing

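The number of members above background on all 3 arrays (46) ranged from 44 to 47 over the cutoffs, scalings and left-out repeats tried, and immunoproteasome subunits (2) from 2 to 3, Psmb8 passing where 2 of 3 arrays sufficed or repeat 1 was left out. The variance test called 0 members under every alternative run, with a smallest adjusted p of 0.88 to 0.998, while calls over all genes ranged from 0 to 39. The median SD of the immunoproteasome subunits ranged from 0.010 without repeat 2 to 0.17 without repeat 1, and its difference from the constitutive ring from -0.073 without repeat 2, a reversal, to 0.14 without repeat 1. The 0.010 is the SD of Psmb8 alone, from a value below the receptor cutoff and another just over it, so the reversal is uncertain.

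Quantile normalization moved the median deviation of repeat 1 to 0.029 (alpha ring), 0.012 (ATPases) and -0.0029 (non-ATPases), and that of repeat 2 to -0.038, -0.039 and -0.017. The sign of repeat 1 also turned in the constitutive ring (0.0093) and the assembly factors (0.020), and that of repeat 2 in the constitutive ring (-0.034). Members lowest in repeat 1 numbered 13 in place of 28 after quantile normalization, where 28.2% of genes above background were lowest in it. Under median centring they numbered 36, where 42.3% of genes above background were. The count of members lowest in repeat 1, its alternatives and the shares over genes with a mean of at least 8.86 were chosen after seeing the data. The cause was not tested. The median deviation of repeat 3 in the constitutive beta ring ranged from 0.0069 without repeat 1 to 0.12 without repeat 2. In all, 589 of the recomputed values kept their call or stayed within the spread, 10 moved and 1 reversed. These values include the variance call of each tested member under each alternative. With a smallest limma adjusted p of 0.97 in the main run, such calls had little room to change. The total is therefore no measure of how firm the medians are. Signal near background limits Psmb8, Psmb11, Psmg3 and Psmg4. No paired analysis was possible because the labels give 1 group.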
